A study of Drosophila melanogaster with 6 samples.

Results

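Molecular chaperones and the genes of the unfolded protein response were followed in Drosophila S2 cells with and without RNA interference against ROW. The members were taken from a list of 46 names, chosen by function, which stand for 43 genes. A gene was measured here when a probe set of the array carries its symbol alone, or an older or newer symbol of the same gene, and the probe set with the highest mean over the 6 arrays stood for it. By that rule 36 of the 43 genes were measured, out of 11982 named genes on the array. The other 7 (Hsp83, Hsp22, Hsp23, Hsp67Ba, Hsp67Bc, Xbp1 and Calr) had no probe set of their own.

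Chaperones bind unfolded proteins and help them reach or regain their shape. In the cytosol and nucleus of fly cells the transcription factor Hsf switches on heat shock genes such as the small heat shock proteins and Hsp70 when unfolded proteins accumulate, while cognate proteins such as Hsc70-4 are made at all times. In the endoplasmic reticulum (ER) the sensors Ire1, PEK and Atf6 respond to unfolded proteins by raising folding capacity, slowing translation and sending failed proteins to degradation, which together are called the unfolded protein response.

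Total RNA from 3 control and 3 ROW RNAi samples was hybridized to Affymetrix Drosophila Genome 2.0 arrays. S2 is a cultured fly line derived from embryos, with properties of blood cells. The labels give all 6 samples, controls included, 1 treatment text, in which cells take up double-stranded RNA against ROW, a zinc finger partner of the chromatin protein HP1c, over 96 h. The controls are also labelled wild type, and what they received, if anything, is not stated, so depletion of ROW and exposure to double-stranded RNA cannot be told apart. Both groups grew in Schneider's medium with serum, penicillin and streptomycin, and whether the samples of a group are separate cultures is not stated in the labels, so the p-values rest on array-to-array spread that could be technical. In RNA of a whole culture, fewer cells of a kind and less RNA per cell cannot be told apart.

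The row transcript checked the labels. On its brightest probe set it fell from 10.44, 10.60 and 10.54 in control to 9.04, 8.91 and 8.91 after ROW RNAi (log2). The difference was −1.58 (SE 0.07, limma adjusted p = 0.00231). Its other probe sets, at −2.61 and −2.65, stood at 16.4% and 15.9% of control, against 33.5% on the brightest (limma adjusted p = 0.0018 and 0.0017). Over the whole array 218 of 18769 probe sets passed an adjusted p of 0.05 in limma, which is 1.16%, with 76 higher (0.405%) and 142 lower (0.757%). All 10 blood cell markers looked up, such as srp, Hml and NimC1, were above the background level of 3.39, the 95th percentile of 17 control probe sets without a fly target. Their mean level lay between 10.76 and 10.81 in control and between 10.73 and 10.78 in ROW RNAi arrays. Of 14 markers of neurons, germline, muscle and fat body, 11 were measured and 10 had a mean over the 6 arrays above background (Mlc2 only through the ROW RNAi arrays). Their mean levels were 5.72 to 5.88 in control and 5.74 to 6.15 in ROW RNAi arrays. Single markers lay far above these means, such as the germline gene bam (10.4 in control, 10.3 after ROW RNAi) and the neuron gene brp (8.3 and 8.1). Levels of different probe sets are not comparable, so these means do not rank cell types. Among the blood cell markers Sr-CI was higher by 0.62 (limma adjusted p = 0.0216) and He lower, at −0.69 (limma adjusted p = 0.00999), and the other 8 did not pass. None of the markers of other cells passed, though the muscle gene Mlc2 stood at 3.56, 3.19 and 3.42 in control and at 5.28, 3.87 and 4.62 after ROW RNAi, and the germline gene vas at 4.20, 2.91 and 3.62 and at 6.50, 3.47 and 5.91. Hybridization controls, which are added to each sample, were higher on ROW RNAi replicate 2 (11.94) than on the other arrays (11.41 to 11.46). Their part in the results below was not tested.

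Of the 36 measured genes, none passed the test in limma, against 1.16% of all probe sets and 1.56% of all named genes at 1 probe set each (0.542% higher and 1.02% lower). At an unadjusted p under 0.05 there were 4 (Hsp26, Hsp27, Hsp68 and Ire1), where 13.8% of all probe sets and 15.1% of named genes reached it. The 3 arrays of one group lay wholly above or below those of the other for 7 genes, 3 higher and 4 lower, and for 21.4% of all probe sets, 7.0% higher and 14.4% lower. Over named genes the share was 24.3%, with 7.58% higher and 16.8% lower. These shares are near those of the whole array. The median log2 fold change was −0.02, with 12 genes above 0 and 24 below, beside −0.03 over all tested probe sets. A p that misses the threshold does not show equal levels, so intervals are given: for 28 of the 36 genes the 95% interval lay within 0.3 of 0 on the log2 scale, and for 24 of them within 0.2. Of all probe sets, 40.6% had an interval within 0.3 of 0, and of named genes at 1 probe set each, 46.7%. Above background were 34 of the 36 genes and 14405 of the 18769 probe sets, with median SDs of 0.047 and 0.12. Shares among probe sets of like brightness were not computed.

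**Figure D1:**
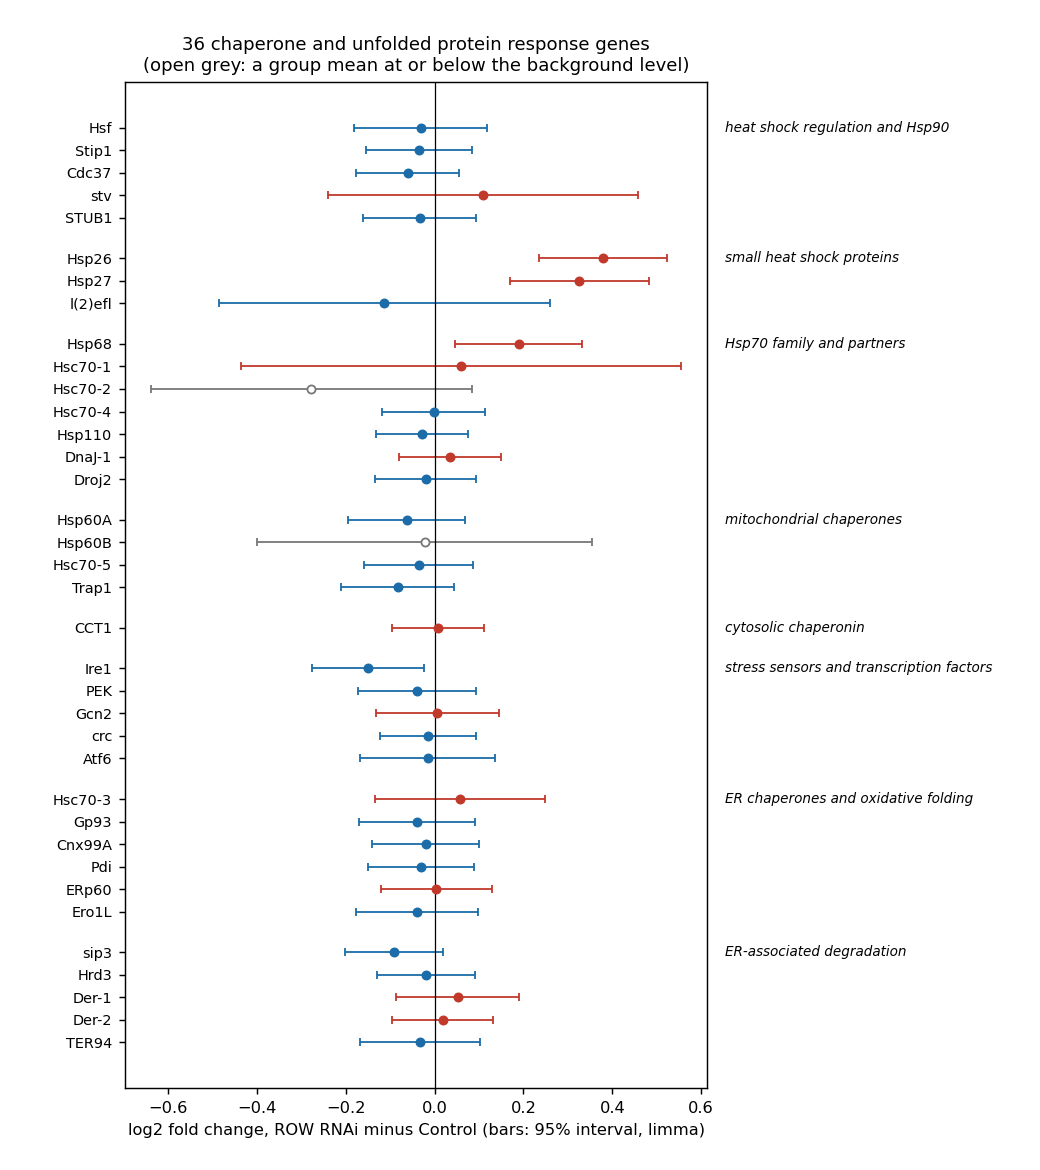
Log2 fold change (ROW RNAi minus control, x axis) of the 36 measured genes by role, with 95% intervals from limma over 3 arrays in each group. Hsp26, Hsp27 and Hsp68 lie to the right with intervals above 0, Ire1 lies to the left with an interval below 0, and the interval of every other gene includes 0.

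The small heat shock genes Hsp26 and Hsp27 had the highest log2 fold changes among the measured genes. Small heat shock proteins form large oligomers that hold unfolding proteins until Hsp70 can refold them, and in the fly several of their genes respond to heat and to the hormone ecdysone. Hsp26 stood at 11.47, 11.52 and 11.41 in control and at 11.77, 11.87 and 11.90 after ROW RNAi. Every ROW RNAi array was above every control array, with a gap of 0.25 between the groups. The difference was 0.38 on the log2 scale (SE 0.06, 95% interval 0.24 to 0.52), a 1.30-fold higher mean, and missed the threshold (limma adjusted p = 0.0576).

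Hsp27, a nuclear small heat shock protein, showed 11.53, 11.51 and 11.61 in control and 11.82, 11.85 and 11.97 after ROW RNAi. Here too the groups did not overlap, by a gap of 0.20, and ROW RNAi replicate 3 was the highest array for both genes. The difference of 0.33 (SE 0.06, 95% interval 0.17 to 0.48, 1.25-fold) did not pass (limma adjusted p = 0.109). Under the 15 alternative settings the log2 fold changes ran from 0.33 to 0.42 for Hsp26 and from 0.28 to 0.36 for Hsp27. Most of these settings could not turn the sign. The groups do not overlap, so leaving out or weighting arrays cannot do so, and the filters, other variances and replicate block keep the same difference. Hsp26 passed under 4 of these settings (both filters on dim probe sets, trend and robust variance, and array weights) and Hsp27 under 2 (the filter at the median mean, and trend and robust variance). These settings also called more probe sets over the whole array than the 218 of 18769 in the main test. They called 274 of 14405 above background, 575 of 9384 above the median mean, 558 with trend and robust variance and 269 with array weights. The highest adjusted p in limma was 0.294 for Hsp26 (median centring) and 0.37 for Hsp27 (without control replicate 2).

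The third measured small heat shock gene, l(2)efl, encodes a relative of the alpha-crystallins. It read 4.56, 4.85 and 4.65 in control and 4.31, 4.83 and 4.58 after ROW RNAi, so the groups overlapped. Its log2 fold change was −0.11 (95% interval −0.49 to 0.26, limma adjusted p = 0.752). Its other probe sets had means below the background level in both groups, so no fold is given for them.

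Hsp22, which encodes a mitochondrial small heat shock protein, had no probe set of its own, but 2 probe sets carry its symbol together with that of CG4456. They cannot be assigned to either gene and are not counted among the 36. The first read 10.29, 10.40 and 10.32 in control and 10.73, 10.73 and 10.93 after ROW RNAi. The second read 6.33, 6.19 and 6.21 against 7.21, 6.68 and 7.12. On both, each ROW RNAi array was above each control array, and ROW RNAi replicate 2 lay closest to the controls on the second. The log2 fold changes were 0.46 (SE 0.07, 95% interval 0.28 to 0.64, limma adjusted p = 0.0668) and 0.76 (SE 0.15, 95% interval 0.39 to 1.12, limma adjusted p = 0.109). Without ROW RNAi replicate 2 the second was 0.92 and passed (limma adjusted p = 0.0186). Leaving out the array closest to the controls could only raise the difference. In that setting 517 probe sets passed, against 218 with all arrays. Across the settings the adjusted p of the second probe set in limma reached 0.358 (without control replicate 1 it was 0.278). Each of these probe sets passed under 4 of the 15 alternative settings.

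**Figure D2:**
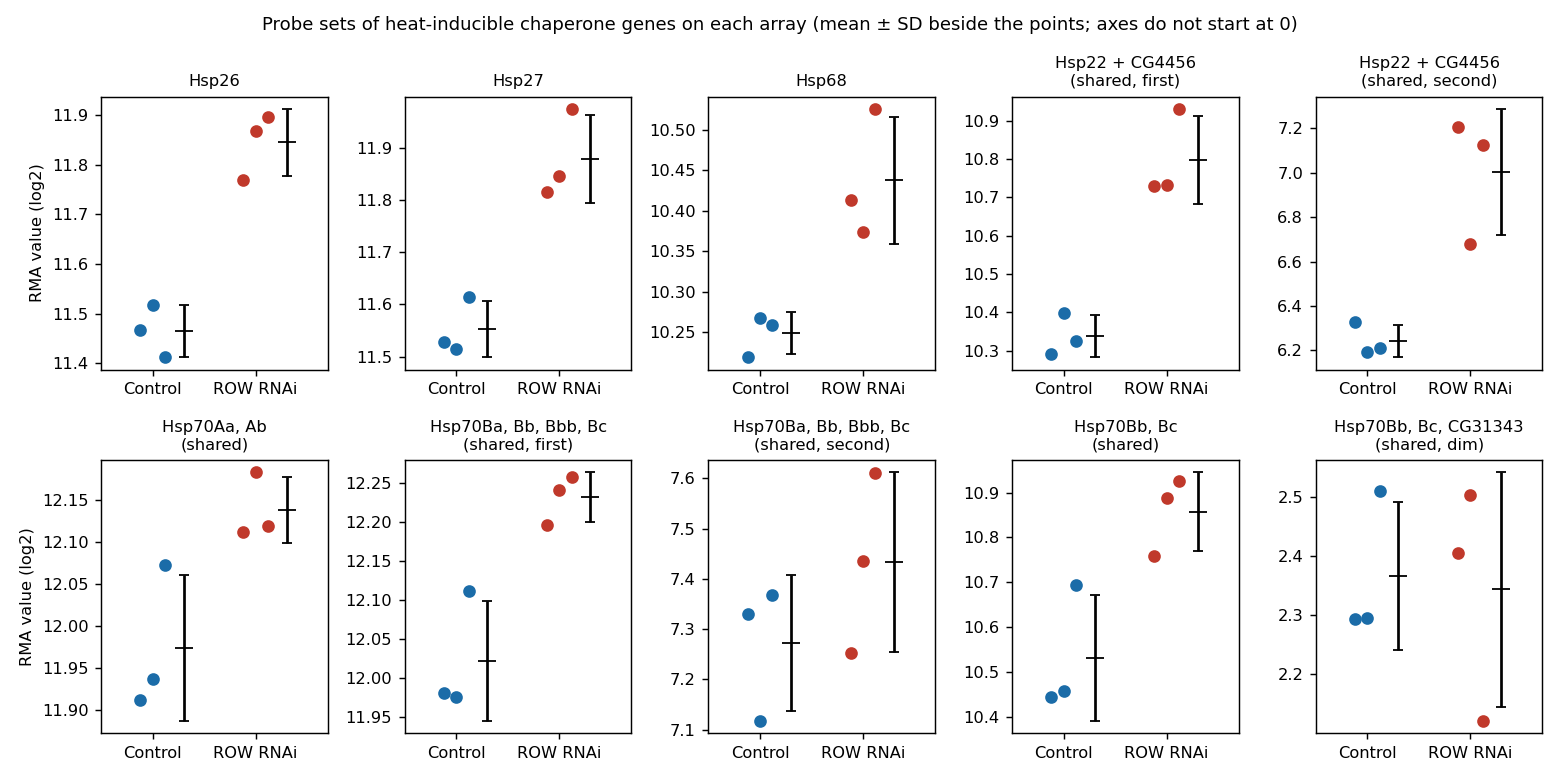
RMA values (log2, y axis, not starting at 0) on each control (blue) and ROW RNAi (red) array for Hsp26, Hsp27, Hsp68 and the probe sets shared by Hsp22 with CG4456 or by Hsp70 genes, with mean ± SD of 3 arrays beside the points. The ROW RNAi arrays lie above all control arrays in 8 of the 10 panels and overlap them in the second Hsp70B panel and in the dim panel with CG31343.

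Hsp26 and Hsp27 lie in a cluster of 8 genes on chromosome arm 3L, in the order Hsp67Bc, CG4456, Hsp22, CG4461, Hsp26, Hsp67Ba, Hsp23 and Hsp27. Within the cluster, CG4461, which has a probe set of its own, stood at 5.11 ± 0.15 in control and 5.07 ± 0.02 in ROW RNAi arrays (log2 mean ± SD, n = 3 each), a log2 fold change of −0.03 (95% interval −0.24 to 0.17). On each side 8 protein-coding genes were looked at, and 15 of these 16 had a probe set. None of the 15 passed the test. Their median log2 fold change was −0.01, from −0.18 (aay) to 0.22 (CG4080), with 7 of them above 0. The highest, CG4080, is the gene next to Hsp27 (95% interval 0.05 to 0.39, limma adjusted p = 0.272). The tests do not compare the cluster with its flanks, so a difference between them was not tested.

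**Figure D3:**
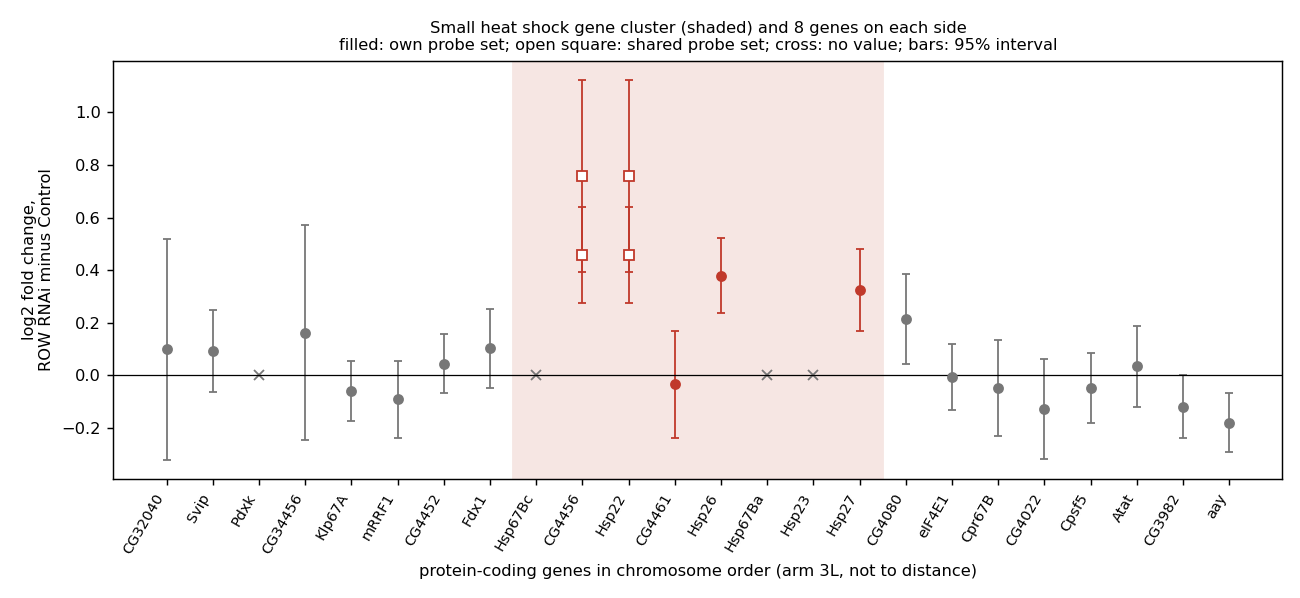
Log2 fold change with 95% interval (y axis) for protein-coding genes in their order on chromosome arm 3L (x axis, not to distance), with the small heat shock gene cluster shaded. The probe sets shared by Hsp22 and CG4456 are drawn at both genes as open squares, at 0.46 and 0.76. Filled points are own probe sets, with Hsp26 at 0.38, Hsp27 at 0.33 and CG4461 at −0.03, and the flanking genes lie between −0.18 and 0.22.

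In the Hsp70 family, which binds exposed hydrophobic stretches of proteins in cycles driven by ATP, the heat-inducible Hsp68 had the highest log2 fold change among genes with a probe set of their own. It read 10.22, 10.27 and 10.26 in control and 10.41, 10.37 and 10.53 after ROW RNAi, without overlap. The log2 fold change was 0.19 (SE 0.06, 95% interval 0.05 to 0.33, 1.14-fold, limma adjusted p = 0.253). It stayed between 0.14 and 0.22 under the alternatives and passed under none of them. Of the 16 genes around Hsp68 on arm 3R, 14 were measured, none passed, and their median was −0.01 (−0.32 to 0.11).

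The constitutive Hsc70-4, the main Hsp70 cognate of the cytosol, read 12.96, 12.98 and 13.03 in control and 13.01, 13.00 and 12.95 after ROW RNAi. The groups overlapped, and the log2 fold change was −0.00 (95% interval −0.12 to 0.11). DnaJ-1, a J-domain partner of Hsp70 that is itself heat-inducible in the fly, read 12.11, 12.16 and 12.18 against 12.19, 12.20 and 12.15, a log2 fold change of 0.04 (95% interval −0.08 to 0.15) that turned to −0.01 with median centring. Hsp110 (Hsc70Cb), a nucleotide exchange factor of Hsp70, was at 12.014, 12.005 and 12.019 in control and at 11.982, 11.998 and 11.971 after ROW RNAi. These did not overlap, but the gap was only 0.007 and the log2 fold change −0.03 (95% interval −0.13 to 0.07). Droj2, another J-domain protein, was at −0.02 (95% interval −0.13 to 0.09).

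Hsc70-1 and Hsc70-2 were dim and varied more. Hsc70-1 read between 4.23 and 4.73 in control and between 4.29 and 4.91 in ROW RNAi arrays, with a log2 fold change of 0.06 (95% interval −0.44 to 0.55), and its other probe sets had a mean under the background level in both groups, so no fold is given for them. Hsc70-2 read 3.27 to 3.70 in control and 2.98 to 3.33 in ROW RNAi arrays, where its mean of 3.16 is under the background level, so no fold is given for it.

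The Hsp70 genes proper, the most strongly heat-inducible chaperone genes of the fly, are near-identical copies, and each of the 5 probe sets that carry their symbols is shared by several genes. The probe set of Hsp70Aa and Hsp70Ab read 11.91, 11.94 and 12.07 in control and 12.11, 12.18 and 12.12 after ROW RNAi (log2 fold change 0.16, 95% interval 0.01 to 0.32, limma adjusted p = 0.338). The first probe set of the Hsp70Ba, Hsp70Bb, Hsp70Bbb and Hsp70Bc genes read 11.98, 11.98 and 12.11 against 12.20, 12.24 and 12.26 (0.21, 95% interval 0.07 to 0.35, limma adjusted p = 0.216). A probe set of Hsp70Bb and Hsp70Bc read 10.44, 10.46 and 10.69 against 10.76, 10.89 and 10.92 (0.33, 95% interval 0.10 to 0.55, limma adjusted p = 0.216). On these 3 probe sets the groups did not overlap, and control replicate 3 was the control array closest to the ROW RNAi arrays. The other Hsp70B probe set overlapped between groups (0.16, 95% interval −0.13 to 0.45), and the fifth, which also carries CG31343, was below the background level in both groups. None of the 5 passed, and under the alternatives 1 did, the first Hsp70B probe set with trend and robust variance (limma adjusted p = 0.0223). Because these probe sets share targets, they are not independent readings.

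Hsf, the transcription factor of the heat shock genes, read 10.87, 10.96 and 11.02 in control and 10.92, 10.97 and 10.86 after ROW RNAi, with a log2 fold change of −0.03 (95% interval −0.18 to 0.12). The groups overlapped. Its activity is set mainly by trimer formation and not by its mRNA, so this value concerns the transcript alone.

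Partners of Hsp90, the chaperone of kinases and receptors, did not pass either. Stip1 (Hop), which bridges Hsp70 and Hsp90, read 12.28, 12.29 and 12.35 against 12.31, 12.27 and 12.23, at −0.04 (95% interval −0.15 to 0.08). Cdc37, which brings kinases to Hsp90, read 11.62, 11.59 and 11.54 against 11.50, 11.51 and 11.55, at −0.06 (95% interval −0.18 to 0.06). For Stip1, ROW RNAi replicate 1 lay inside the range of the controls, and for Cdc37, ROW RNAi replicate 3 was above control replicate 3. The ubiquitin ligase STUB1 (CHIP), which marks clients of Hsp70 and Hsp90 for degradation, was at −0.03 (95% interval −0.16 to 0.09). The BAG family co-chaperone stv was the widest of these, at 7.21, 7.60 and 7.35 against 7.28, 7.54 and 7.67 (0.11, 95% interval −0.24 to 0.46).

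**Figure D4:**
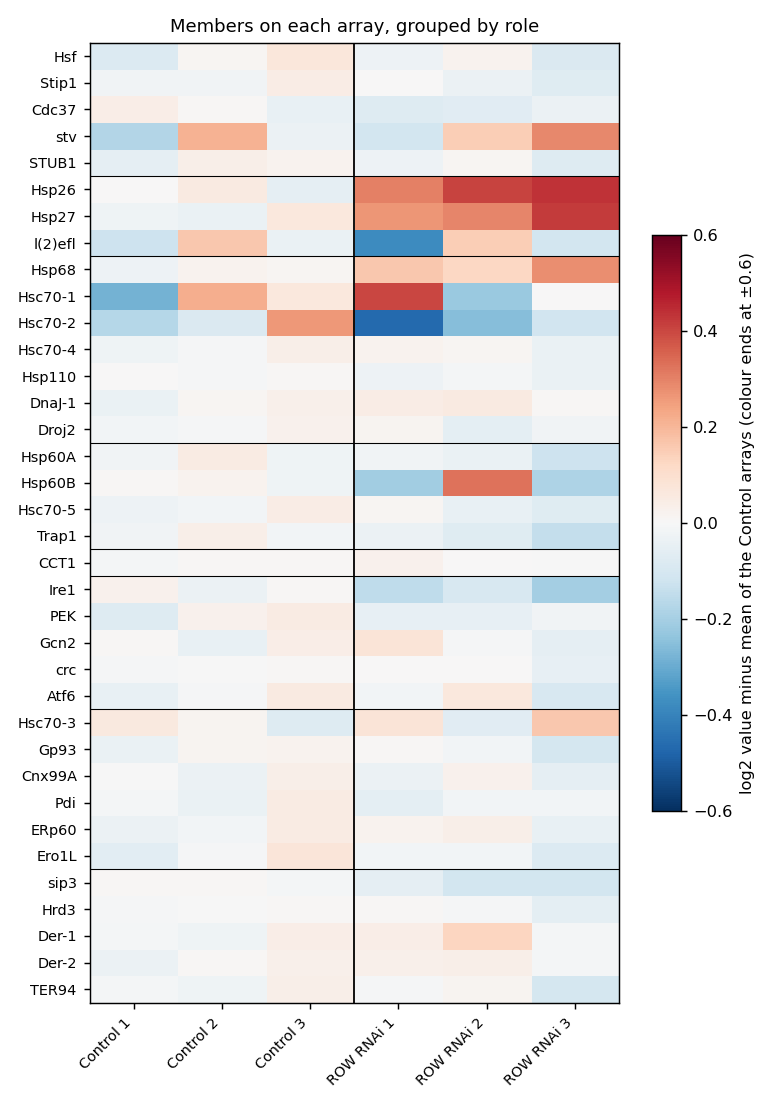
Log2 value of each gene on each array minus the mean of the 3 control arrays (colour, ends at ±0.6), with genes in rows by role and arrays in columns. Hsp26, Hsp27 and Hsp68 are red on all 3 ROW RNAi arrays and Ire1 is blue on all 3, and most other rows stay pale. The dim genes Hsc70-1, Hsc70-2, l(2)efl and Hsp60B change colour between arrays of the same group.

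Mitochondrial chaperones fold proteins after import. None of the 4 measured genes passed, and the 3 above background had log2 fold changes from −0.08 to −0.04, each with an interval that includes 0. Trap1, the mitochondrial Hsp90, read 11.30, 11.36 and 11.30 in control and 11.28, 11.25 and 11.18 after ROW RNAi. The groups did not overlap, by 0.02, and the difference of −0.08 (SE 0.05, 95% interval −0.21 to 0.04, limma adjusted p = 0.508) is under 0.1 on the log2 scale. Hsp60A, the matrix chaperonin, read 12.09, 12.16 and 12.08 against 12.08, 12.07 and 11.98 (−0.06, 95% interval −0.20 to 0.07). Hsc70-5, the mitochondrial Hsp70, read 12.52, 12.53 and 12.59 against 12.56, 12.50 and 12.47 (−0.04, 95% interval −0.16 to 0.09). Hsp60B, a paralog used in the testis, had means of 3.10 and 3.08, under the background level in both groups, so no fold is given. A probe set that Hsp60B shares with Ncc69 read 6.975, 6.844 and 6.801 against 6.996, 7.190 and 6.988, with a log2 fold change of 0.19 (95% interval −0.02 to 0.39, limma adjusted p = 0.393), and cannot be assigned to either gene.

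The cytosolic chaperonin, a ring of related subunits that folds actin and tubulin, was represented by CCT1 (T-cp1). It read 12.80, 12.82 and 12.82 in control and 12.84, 12.82 and 12.81 after ROW RNAi. The groups overlapped, with ROW RNAi replicate 1 above all controls and control replicate 1 below all ROW RNAi arrays, and a log2 fold change of 0.01 (95% interval −0.10 to 0.11). The other 7 subunits measured, CCT2 to CCT8, had log2 fold changes between −0.01 and 0.07 and none passed.

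Among the sensors and transcription factors of the stress responses, Ire1 stood lowest. Ire1 is an ER membrane kinase and endonuclease that splices the Xbp1 mRNA. It read 8.99, 8.93 and 8.97 in control and 8.81, 8.87 and 8.76 after ROW RNAi. The groups did not overlap, by 0.06. The log2 fold change was −0.15 (SE 0.05, 95% interval −0.28 to −0.02), which is 90.2% of the control level, and did not pass (limma adjusted p = 0.302). Its other probe set overlapped between groups and gave −0.11 (95% interval −0.30 to 0.07). Under the alternatives the log2 fold change stayed between −0.20 and −0.11 and passed under none.

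PEK, the ER kinase that phosphorylates the initiation factor eIF2alpha, was at −0.04 (95% interval −0.17 to 0.09). Gcn2, which acts on the same factor when amino acids are short, read 9.83, 9.77 and 9.86 against 9.90, 9.82 and 9.77 (0.01, 95% interval −0.13 to 0.14). Their common effector crc, the fly ATF4, read 12.43, 12.44 and 12.45 in control and 12.44, 12.44 and 12.39 after ROW RNAi (−0.01, 95% interval −0.12 to 0.09). ROW RNAi replicate 3 was the lowest of these arrays, and the other two lay inside the control range. Atf6, a transcription factor released from the ER membrane by proteolysis, was at −0.02 (95% interval −0.17 to 0.14). Each of these 4 genes overlapped between groups, and splicing, phosphorylation or proteolysis of these regulators is not measured by the arrays.

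ER chaperones are the usual targets of the unfolded protein response. Hsc70-3, the fly BiP and the main Hsp70 of the ER, read 13.02, 12.98 and 12.89 in control and 13.04, 12.89 and 13.12 after ROW RNAi. ROW RNAi replicates 1 and 3 were above all controls and replicate 2 was inside their range, and the log2 fold change was 0.06 (SE 0.08, 95% interval −0.13 to 0.25, limma adjusted p = 0.758). ERp60, a protein disulfide isomerase, read 13.18, 13.20 and 13.26 against 13.24, 13.25 and 13.17 (0.00, 95% interval −0.12 to 0.13). Gp93, the Hsp90 of the ER, was at −0.04 (95% interval −0.17 to 0.09), the lectin chaperone Cnx99A at −0.02 (95% interval −0.14 to 0.10) and the oxidase Ero1L, which supplies disulfide bonds, at −0.04 (95% interval −0.18 to 0.10). The probe set named Pdi read between 3.40 and 3.51 on all arrays, which is next to the background level, so its value of −0.03 says little about that gene. None of the 6 passed, and their intervals all lay within 0.3 of 0.

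ER-associated degradation moves misfolded proteins back to the cytosol for the proteasome. The ubiquitin ligase gene sip3, the fly Hrd1, read 10.88, 10.87 and 10.86 in control and 10.82, 10.76 and 10.76 after ROW RNAi. The groups did not overlap, by 0.04, and the log2 fold change was −0.09 (SE 0.04, 95% interval −0.20 to 0.02, limma adjusted p = 0.425). Its partner Hrd3 was at −0.02 (95% interval −0.13 to 0.09). Der-1, a Derlin of the translocation channel, read 11.56, 11.54 and 11.61 against 11.61, 11.70 and 11.56 (0.05, 95% interval −0.09 to 0.19), and Der-2 was at 0.02 (95% interval −0.10 to 0.13). TER94, the ATPase that pulls substrates from the membrane, read 12.75, 12.74 and 12.80 against 12.76, 12.78 and 12.66 (−0.03, 95% interval −0.17 to 0.10). Except for sip3, the groups overlapped in all of these.

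Further genes of the same pathways, 70 names chosen by function, gave 53 with a probe set of their own. In limma none passed, against 1.16% of all probe sets and 1.56% of named genes. An unadjusted p under 0.05 was reached by 5, and by 13.8% of all probe sets and 15.1% of named genes. The groups did not overlap for 5 higher and 7 lower genes, beside 7.58% higher and 16.8% lower among named genes. Of the 53, 27 lay above 0 and 26 below, with a median of 0.00. The 3 largest differences were all below 0. The ER protein gene wbl, which is needed to sort the sulfotransferase Pipe, read 3.76, 3.91 and 3.84 in control and 3.38, 3.70 and 3.25 after ROW RNAi, close to background (−0.39, 95% interval −0.70 to −0.09, limma adjusted p = 0.267). Without ROW RNAi replicate 2 it was −0.52 and passed (limma adjusted p = 0.0449). That array lay closest to the controls, and 517 probe sets passed without it, against 218 with all arrays. The myosin chaperone gene unc-45 read 9.93, 9.91 and 9.82 against 9.66, 9.56 and 9.73 (−0.24, 95% interval −0.40 to −0.08, limma adjusted p = 0.217).

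The pseudokinase gene trbl, whose mammalian relative TRIB3 is induced through ATF4, read 8.483, 8.528 and 8.504 in control and 8.280, 8.309 and 8.270 after ROW RNAi. These groups were 0.17 apart, and the log2 fold change was −0.22 (SE 0.04, 95% interval −0.33 to −0.11, limma adjusted p = 0.114). It passed under 2 alternatives. The ER genes CaBP1, a disulfide isomerase, and Manf, a secreted protein released under ER stress in the fly and in mammals, were at −0.00 (95% interval −0.12 to 0.12) and 0.01 (95% interval −0.10 to 0.11). All 6 prefoldin subunits, which deliver clients to the chaperonin, lay between 0.01 and 0.06. The 5 measured genes of translation control and ATF4 targets lay between −0.22 and 0.09, with PPP1R15, a regulator of eIF2alpha dephosphorylation, at 0.00.

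**Figure D5:**
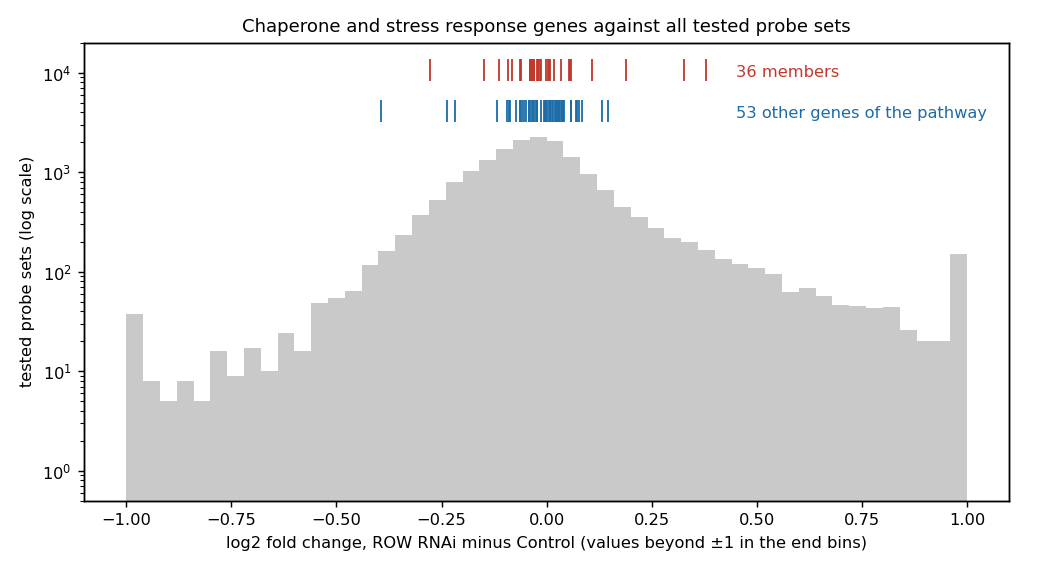
Log2 fold change (ROW RNAi minus control, x axis) of all 18769 tested probe sets as a histogram on a log scale, with values beyond ±1 in the end bins, with a tick for each of the 36 measured genes (red) and for each of 53 other genes of the pathways (blue). Most ticks lie close to 0, the highest red ticks are Hsp27 at 0.33 and Hsp26 at 0.38, and the lowest blue tick is wbl at −0.39.

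Outside Hsp26, Hsp27 and Hsp68, 31 of the 33 remaining genes were above the background level. All 31 had log2 fold changes between −0.15 and 0.11, and 28 of them were within 0.1 of 0. The median absolute log2 fold change was 0.036 over all 36 measured genes, 0.101 over all tested probe sets and 0.094 over named genes. Dim probe sets are part of the last 2 sets (14405 of 18769 tested probe sets were above background), and probe sets of like brightness were not compared. The 31 include Pdi, which read next to the background level. The choice of Hsp26, Hsp27 and Hsp68 followed from their values and is a description, so the upper end of the range of the others was set by it.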

How the data were processed

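Expression was measured in 3 control and 3 ROW RNAi samples of S2 cells, with 25 ng of total RNA per sample amplified by the SPIA method, per the labels. The deposited values are log2 values, 1 per probe set and array, made by the authors with RMA, as the submitters' processing notes name it. That method subtracts background, gives the probes of all arrays the same distribution and then summarises probes into probe sets. The medians of the tested probe sets still ran from 4.90 to 4.94 on control and from 4.88 to 5.04 on ROW RNAi arrays (log2). RMA can hide a change common to most RNAs and can compress folds. No probe or genome sequence was at hand, so none is printed.

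Of 18952 probe sets, 183 control probe sets were left out and 18769 tested. Symbols came from the platform annotation, updated by gene ID (Release 6 gene table): 13647 probe sets had 1 symbol (13544 matched by gene ID), 402 several and 4720 none. The table served for names, arms and gene order only. Levels of different probe sets are not comparable, and their order is not a result here. Means served to choose the probe set of a gene and the genes described, and to mark dim probe sets.

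Groups were compared with limma 3.58.1 in R 4.3.3 (lmFit, eBayes, two-sided), with Benjamini-Hochberg adjustment over all tested probe sets and a threshold of 0.05, and the fit was tested on simulated data. SE and 95% intervals are limma's. The number of arrays limits the precision. Members, lists and tests were chosen with earlier results of these data known. All members are named. Values on each array are given for those without overlap and for the 2 of each role with the highest means, and for some others. Of the other pathway genes, the rule named the 3 with the largest differences and the 2 with the highest means. The symbol Sse, which is counted among the 70 names of that list, is the separase gene in the fly, and no value is given for it. The alternatives were 2 other scalings (median centring, cyclic loess), 2 filters on low values, trend and robust or unmoderated variances, weighted arrays, a replicate block, each array left out in turn, and probe sets averaged per gene. Tables and figures used pandas 2.3.3 and matplotlib 3.10.9 in Python 3.11.15.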

Additional observations from a re-analysis of the deposited data

Results flagged for a closer look

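The hybridization control probe sets, which lie outside the comparison, averaged 0.485 higher (log2) on ROW RNAi replicate 2 than on the highest control array. Without that array the log2 fold changes were 0.37 for Hsp26 (limma adjusted p = 0.065), 0.34 for Hsp27 (limma adjusted p = 0.0801) and 0.22 for Hsp68 (limma adjusted p = 0.114), beside 0.38, 0.33 and 0.19 with it.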

How the results depend on the processing

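The count of probe sets past the threshold was 218. Among the 14405 probe sets above background it was 274, and with array weights 269. It was 107 with median centring, 575 with probe sets above the median mean alone, 558 with trend and robust variance, 122 with the unmoderated test and 0 in limma with a replicate block (2924 at an unadjusted p under 0.05), and ran from 24 to 517 when 1 array was left out, with 517 without ROW RNAi replicate 2. Of the measured genes, 1 passed among probe sets above background (Hsp26, limma adjusted p = 0.0366), 2 among those above the median mean (Hsp26, 0.013, and Hsp27, 0.0293), 2 with trend and robust variance (Hsp26, 0.00104, and Hsp27, 0.0047) and 1 with array weights (Hsp26, 0.0416). None passed in the other settings, each left-out array included. The row transcript was −1.58 under the replicate block (limma adjusted p = 0.0556), and Hsp26 had an adjusted p of 0.178 there. Deviations of same-numbered arrays from their group means correlated at 0.48 for replicate 1, 0.55 for replicate 2 and −0.04 for replicate 3. The values for replicates 1 and 2 could reflect shared replicate effects, and the value for replicate 3 was small. Deviations within a group depend on each other, so these values do too, and arrays with different numbers were not compared. The correlations do not decide whether the numbers pair the samples. The main test treated the samples as unpaired, and the replicate block gives the results if they are paired. The median of the measured genes stayed between −0.07 and −0.00. The sign turned in at least 1 of 15 settings for 15 of the 36 genes, none past the threshold, and held in 21. Where the groups do not overlap, leaving out or weighting arrays cannot turn a sign. The cause of the differences between settings was not tested. Signals near background limit Hsc70-2, Hsp60B and Pdi.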
